A study of Homo sapiens with 8 samples.

Results

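The genes described here are 43 chromatin regulators, which write, erase or read marks on DNA and histones or move nucleosomes. They were taken by gene symbol from the deposited expression table, in which all 43 were found among 27475 human genes. The rule that takes them uses no expression value, but it was set with earlier results of these data known. RNA-seq had been made from RT112 and UM-UC-3, established lines grown from human bladder cancers, after transfection for 72 h with 100 pmol of siRNA. Each line received either 3 pooled siRNAs against PAI-1 (siPAI-1) or 3 pooled scrambled siRNAs (Scr), which gave 4 groups of 2 libraries. The labels name no genetic alteration in any group, and they give the medium as RPMI or DMEM without tying one to a line. By its text, the study repeated the knock-down independently more times than there are libraries per group. Which repeats were sequenced is not given in the sources used here, and nothing in the labels says that replicates 1 and 2 came from separate cultures, so the p-values measure only the spread between these libraries, which may be technical.

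DNA methyltransferases (DNMT) add methyl groups to cytosines that precede guanines (CpG), and TET enzymes oxidise these groups as a first step of their removal. Histone methyltransferases, demethylases, acetyltransferases and deacetylases set and remove marks on histone tails, most of them inside large complexes that also hold readers and corepressors. Remodellers such as SWI/SNF use ATP to slide or evict nucleosomes, and genes of SWI/SNF, of the KMT2 family and of the acetyltransferases are among those often mutated in bladder cancer.

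The promoters of the 3 genes whose difference between the lines passed the test under every setting tried are shown here, since CpG is the substrate of the DNMT and TET enzymes described below. The windows come from RefSeq (GRCh38.p14), run 5′ to 3′ on the plus strand from 250 bases before to 50 bases after the annotated start, and have each CpG in capitals. KDM1A (ENSG00000004487.15) lies on chromosome 1 at chr1:23019468-23083689, and its window is chr1:23019218-23019517. SMARCA4 (ENSG00000127616.17) lies on chromosome 19 at chr19:10961030-11062273, and the window of its first start is chr19:10960780-10961079. ARID1A (ENSG00000117713.17) lies on chromosome 1 at chr1:26696015-26782104, and its window is chr1:26695765-26696064.
KDM1A: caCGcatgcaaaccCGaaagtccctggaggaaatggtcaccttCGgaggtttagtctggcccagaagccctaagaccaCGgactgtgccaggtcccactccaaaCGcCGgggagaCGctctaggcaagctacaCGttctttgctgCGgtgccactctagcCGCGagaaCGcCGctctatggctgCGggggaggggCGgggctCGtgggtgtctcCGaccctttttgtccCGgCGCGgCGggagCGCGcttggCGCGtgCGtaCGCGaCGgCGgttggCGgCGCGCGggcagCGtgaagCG
SMARCA4: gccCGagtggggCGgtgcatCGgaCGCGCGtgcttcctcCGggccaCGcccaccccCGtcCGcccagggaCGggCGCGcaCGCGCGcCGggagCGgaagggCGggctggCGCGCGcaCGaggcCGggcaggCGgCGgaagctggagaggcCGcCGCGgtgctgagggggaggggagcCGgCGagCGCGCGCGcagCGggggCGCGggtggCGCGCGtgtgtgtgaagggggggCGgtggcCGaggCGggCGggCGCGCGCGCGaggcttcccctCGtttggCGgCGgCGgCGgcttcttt
ARID1A: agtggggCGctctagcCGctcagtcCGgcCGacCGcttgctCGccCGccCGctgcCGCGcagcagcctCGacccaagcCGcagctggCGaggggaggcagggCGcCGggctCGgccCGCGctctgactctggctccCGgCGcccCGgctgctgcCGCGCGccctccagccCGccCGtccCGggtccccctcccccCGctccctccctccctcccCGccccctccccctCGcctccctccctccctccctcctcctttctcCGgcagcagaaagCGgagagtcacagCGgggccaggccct
These windows hold 36, 55 and 33 CpG for KDM1A, SMARCA4 and ARID1A. The median was 14 over all 35116 promoter windows of the table and 28.5 over the windows found for the 43 genes. A count as high as that of SMARCA4 was found in 0.373% of all windows, and its second annotated start, at chr19:10983874-10984173, has 5 CpG. Each of the 3 windows printed above also holds the letters GGGCGG on one of the strands, as do 45% of all windows. For 40 of the 43 genes a window was found, and 55 of their 70 windows have 10 or more CpG (78.6%, against 56.4% of all windows). SIRT7, HDAC5 and CHD7 had none. Methylation itself was not measured in these libraries.

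All values below are TPM (a unit of transcript abundance scaled to gene length and to the same sum in each library), so they are shares of a library and allow different genes to be set side by side. The libraries were estimated to hold 29.4 to 34.2 M reads (M for mega). The labelled origin was checked with 14 urothelial and epithelial markers, which summed to 11748 to 13470 TPM in RT112 and to 227 to 245 TPM in UM-UC-3. Of 13 tested in Scr, 12 were called higher in RT112 and 0 lower. In UM-UC-3 CDH1 (0 to 0.48 TPM), EPCAM (0.14 to 0.46 TPM), FOXA1 (0.28 to 0.51 TPM) and UPK2 (0 to 0.22 TPM) were at or near 0. KRT18 (167 to 186 TPM), KRT8 (31.2 to 42.1 TPM), KRT7 (7.99 to 10.9 TPM) and PPARG (4.53 to 6.05 TPM) were present there. UPK1A was low in both lines (0.14 to 0.38 TPM in UM-UC-3 and 0.36 to 1.96 TPM in RT112). UPK3A was listed at 0 in all libraries except RT112 siPAI-1 replicate 1 (0.08 TPM). Of 4 mesenchymal markers the summed level was 2976 to 3260 TPM in UM-UC-3 and 72.4 to 147 TPM in RT112. VIM (2852 to 3142 against 6.04 to 8.09 TPM) made up most of it in UM-UC-3, and in Scr VIM and ZEB1 were called lower while FN1 (64.3 and 70.6 against 113 and 120.4 TPM) and CDH2 (10.6 and 9.22 against 18.2 and 20.6 TPM) were called higher in RT112. In siPAI-1 libraries VIM and ZEB1 were again called lower, and FN1 and CDH2 were not called. The markers PTPRC, CD3E, PECAM1 and ALB of other cell types summed to at most 1.89 TPM in any library. RT112 siPAI-1 replicate 1 stood apart from the other RT112 libraries in FN1 (58.2 against 108 to 120.4 TPM) and CDH2 (7.65 against 17.9 to 20.6 TPM). The part of these marker differences in the results below was not tested, and in bulk RNA a different mix of cells and a different level per cell cannot be told apart.

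All 43 genes were above 0 TPM in each of the 8 libraries, and 41 were at 1 TPM or more in all of them. Their mean levels had a median of 27.4 TPM, against 20 TPM over expressed genes, by which are meant all genes averaging 1 TPM or more in the libraries compared. DNMT1, KDM1A and HDAC2 had the highest mean levels, with 183, 170.1 and 166 TPM, followed by HDAC1 (129.5 TPM) and NCOR1 (115 TPM). A further 26 genes had a mean of 10 to 50 TPM, and 9 were under 10 TPM, with TET1 lowest at 0.495 TPM. Summed over the 43 genes, the level was 1663 to 1748 TPM in UM-UC-3 and 1688 to 1754 TPM in RT112, so the lines overlapped in the total while many single genes did not.

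**Figure D1:**
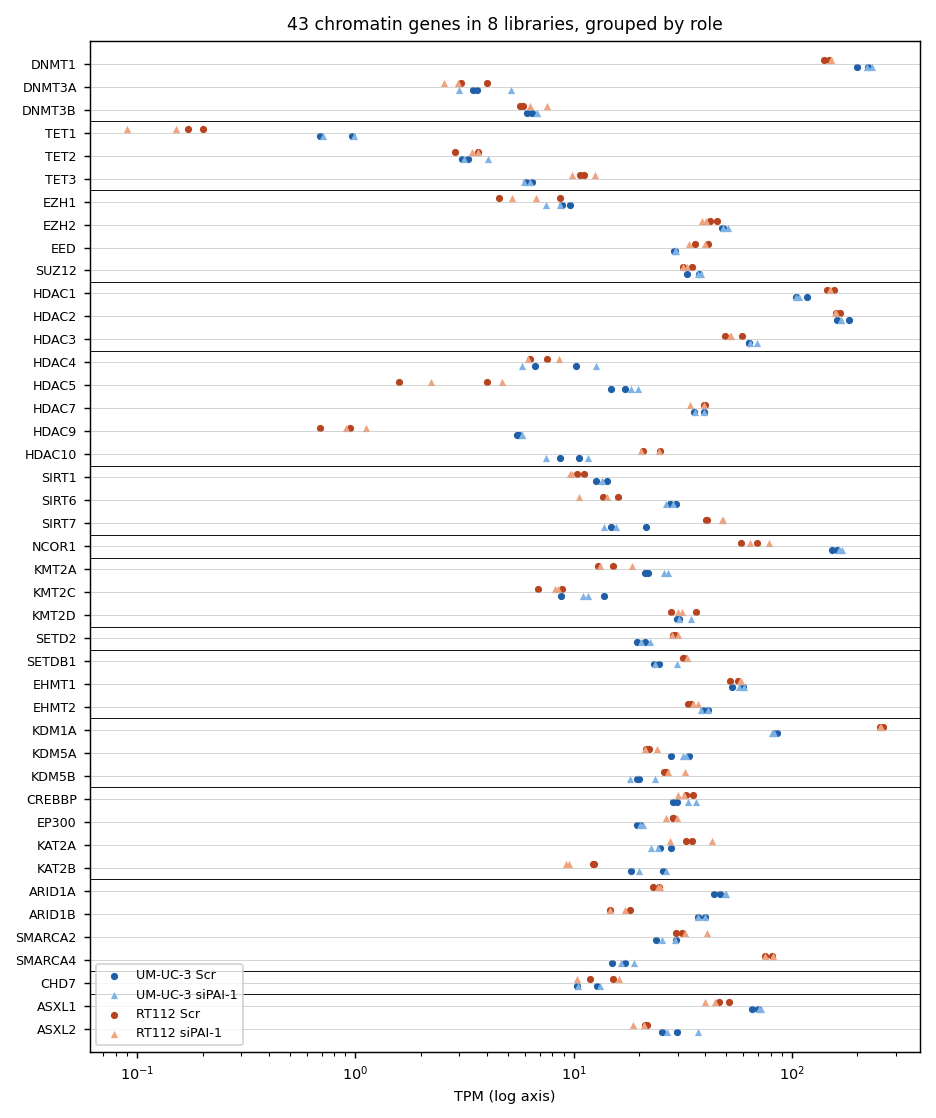
TPM (log axis) of the 43 genes in each of the 8 libraries, with genes grouped by role and separated by lines, UM-UC-3 in blue, RT112 in red, Scr as circles and siPAI-1 as triangles. SMARCA4 (15.1 to 19.01 against 75.1 to 82.3 TPM) and KDM1A (81.3 to 85.5 against 253 to 261 TPM) show RT112 far to the right of UM-UC-3, while HDAC9, HDAC5 and TET1 show it far to the left.

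RT112 was first compared with UM-UC-3 in the Scr libraries, which asks how the chromatin genes differ between the lines without knock-down. A gene was called where the limma test on log2(TPM + 0.1) gave a Benjamini-Hochberg adjusted p under 0.05 over all 19201 genes tested, a scale on which fold changes of low genes are understated. Of the 43 genes 25 were called, 12 higher and 13 lower in RT112. That is 58.1% of them, against 51.6% of all genes tested and 64.6% of expressed genes (31.7% higher and 32.9% lower), so the share called lies near the background. At least 1.5-fold differences were called for 5 higher and 9 lower of the 43 genes. That is a smaller share than the 51.1% of expressed genes (25.5% higher and 25.7% lower). Regardless of sign, the median size of the difference was 0.44 (log2), against 0.69 over expressed genes. The median difference over the 43 genes was −0.09 (log2), against −0.04 over expressed genes. Over all 8 libraries the lines did not overlap for 29 of the 43 genes (12 higher and 17 lower in RT112), against 73.9% of expressed genes (36% higher and 37.9% lower). The siPAI-1 libraries allow the same comparison in 4 libraries that the Scr comparison did not use. There 8 genes were called higher and 17 lower, again 58.1%, against 52.2% of all 19359 genes tested and 65.5% of expressed genes (32.5% higher and 32.9% lower). Called in both, in the same direction, were 20 genes (8 higher and 12 lower), which is 80% of each set of calls, and none was called in opposite directions. The share over all genes was not counted. Of the other chromatin genes described below, 81.1% of the Scr calls and 80% of the siPAI-1 calls were shared. EED, KAT2A, KDM5B, SETDB1 and EHMT2 were called in Scr libraries alone, and KMT2C, SIRT1, EZH2, ASXL2 and HDAC3 in siPAI-1 libraries alone, and whether the line difference of these genes depends on siPAI-1 is given by the interaction test below. With only 3 libraries left in a fit, 13 and 11 of the 25 Scr calls were kept without UM-UC-3 Scr replicate 1 and 2, and 9 without either RT112 Scr replicate. Of the 25 siPAI-1 calls, 7 and 8 were kept without UM-UC-3 siPAI-1 replicate 1 and 2, and 14 without either RT112 siPAI-1 replicate.

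**Figure D2:**
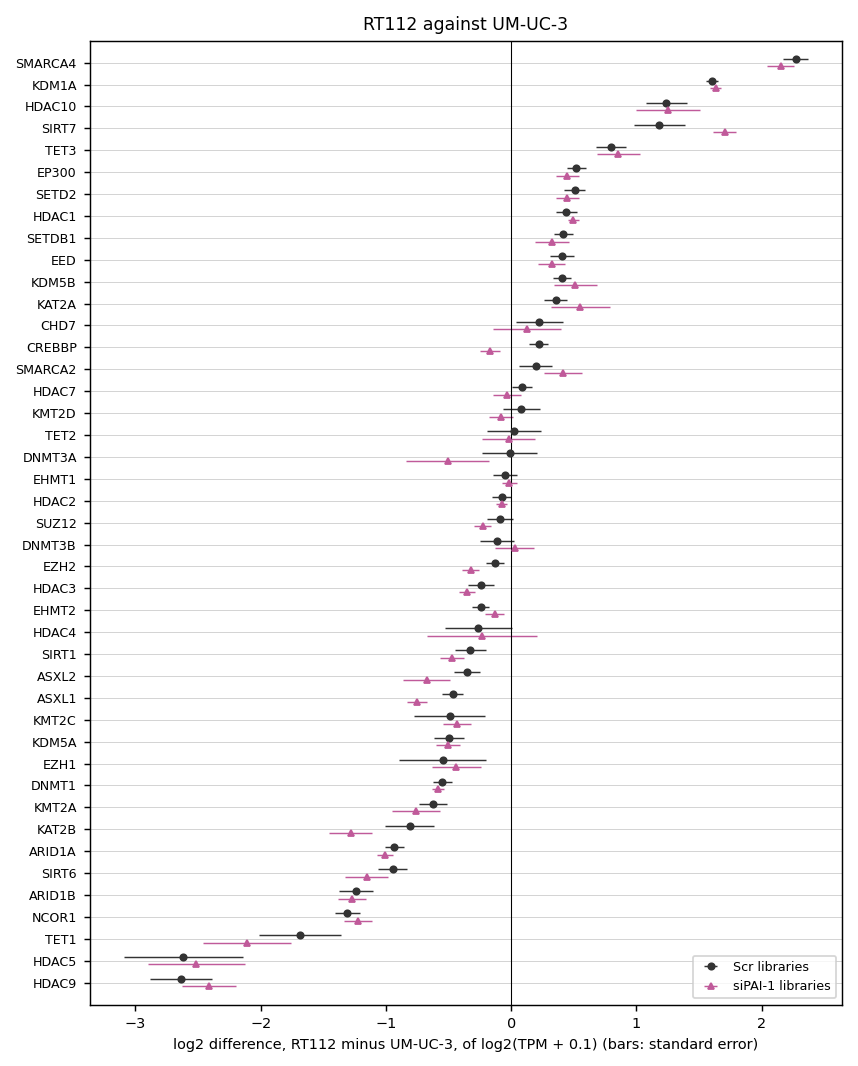
Difference between RT112 and UM-UC-3 (log2, RT112 minus UM-UC-3) for each of the 43 genes with its standard error, in Scr libraries (circles) and siPAI-1 libraries (triangles), ordered by the Scr value. SMARCA4 lies at the top (2.27 and 2.15) and HDAC9 at the bottom (−2.64 and −2.41). The sign is the same in both for 38 of the 43 genes, and the share over all genes was not counted.

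Among the genes of DNA methylation, DNMT1, the enzyme that copies methylation after replication, was lower in RT112, TET3 was higher and TET1 was lower. DNMT1 had 199 and 223 TPM in UM-UC-3 Scr, 220.25 and 233 TPM in UM-UC-3 siPAI-1, 148 and 140.4 TPM in RT112 Scr, and 151.2 and 151.1 TPM in RT112 siPAI-1. All 4 RT112 libraries lay below all 4 of UM-UC-3, and the difference in Scr was 1.46-fold (log2 −0.55, SE 0.075, limma adjusted p = 0.00634). DNMT1 is known to be expressed with cell division, and 15 proliferation genes summed to 3480 to 3715 TPM in UM-UC-3 and 3376 to 3508 TPM in RT112, with 3 of them called higher and 6 lower in RT112 Scr. The part of this difference in the DNMT1 value was not tested. DNMT3A and DNMT3B, which place new methyl groups, had 2.55 to 5.18 TPM and 5.68 to 7.59 TPM and were not called in either comparison. DNMT1 made up 95.1% to 95.8% of the summed level of the 3 methyltransferases in UM-UC-3 and 93.5% to 94.5% in RT112.

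Of the TET enzymes, TET3 had 6.05 and 6.47 TPM in UM-UC-3 Scr, 6.31 and 5.91 TPM in UM-UC-3 siPAI-1, 11.2 and 10.7 TPM in RT112 Scr, and 9.83 and 12.6 TPM in RT112 siPAI-1. Every RT112 library was above every UM-UC-3 library (log2 0.80 in Scr, SE 0.12, limma adjusted p = 0.00848). TET1 was the other way round, with 0.69 and 0.96 TPM in UM-UC-3 Scr, 0.99 and 0.71 TPM in UM-UC-3 siPAI-1, 0.17 and 0.2 TPM in RT112 Scr, and 0.15 and 0.09 TPM in RT112 siPAI-1. The lines did not overlap (log2 −1.69, SE 0.33, limma adjusted p = 0.0171), but TET1 rests on an estimated 18 to 222 reads per library, an upper estimate, and was not among the genes tested when a mean of at least 1 TPM was required. TET2 had 2.85 to 4.06 TPM with overlapping lines (log2 0.02, SE 0.22). TET3 thus took 55.3% to 61.5% of the summed TET level in UM-UC-3 and 73.3% to 78.7% in RT112.

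Polycomb repressive complex 2 (PRC2) places the repressive methylation of histone H3 lysine 27 through EZH2 or EZH1, with EED and SUZ12 as core subunits. Of its 4 genes, 1 was called in each line comparison. EED was called higher in RT112 Scr (28.9 and 29.1 against 35.9 and 41.2 TPM, log2 0.41), with a value of 0.32 in the siPAI-1 libraries that missed the threshold (limma adjusted p = 0.0688). EZH2 had 47.7 to 51.3 TPM in UM-UC-3 and 39.0 to 45.5 TPM in RT112, and passed the test in siPAI-1 libraries alone (log2 −0.32, limma adjusted p = 0.0216). SUZ12 (31.8 to 38.5 TPM) and EZH1 (4.54 to 9.61 TPM, log2 −0.55 in Scr with a 95% interval of −1.51 to 0.42) were not called in either comparison. The RT112 Scr libraries had 4.54 and 8.66 TPM of EZH1, a wide gap between replicates.

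Among the other histone methyltransferases, KMT2A, which methylates histone H3 lysine 4 at active promoters, was lower in RT112. It had 22.04 and 21.2 TPM in UM-UC-3 Scr, 26.0 and 27.1 TPM in UM-UC-3 siPAI-1, 15.1 and 12.9 TPM in RT112 Scr, and 13.2 and 18.6 TPM in RT112 siPAI-1. The highest RT112 value lay below the lowest of UM-UC-3 (log2 −0.62 in Scr, SE 0.12, limma adjusted p = 0.0144). KMT2C and KMT2D, which act at enhancers and are frequent targets of mutation in bladder tumours, had 6.9 to 13.8 TPM and 27.9 to 36.2 TPM. KMT2D was not called (log2 0.08 and −0.08) and KMT2C was called lower in siPAI-1 libraries alone (log2 −0.43). SETD2, which marks transcribed gene bodies at lysine 36, was higher in RT112 in both comparisons (19.5 to 22.4 against 28.3 to 30.25 TPM, log2 0.51 and 0.45). Of the enzymes for the repressive lysine 9 mark, SETDB1 was called higher (23.3 and 24.6 against 31.8 and 32.2 TPM, log2 0.42) and EHMT2 lower (log2 −0.24, limma adjusted p = 0.049) in Scr libraries alone, and EHMT1 was not called, with 52.2 to 59.9 TPM over the Scr libraries.

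The demethylase KDM1A (LSD1), which removes methyl groups from histone H3 lysine 4 within corepressor complexes, was the gene with the smallest p of the 43 in both line comparisons. It had 84.0 and 85.5 TPM in UM-UC-3 Scr, 83.1 and 81.3 TPM in UM-UC-3 siPAI-1, 255 and 261 TPM in RT112 Scr, and 257 and 253 TPM in RT112 siPAI-1. The 4 libraries of each line lay close together and far from the other line, 3.04-fold higher in RT112 in Scr (log2 1.61, SE 0.046, limma adjusted p = 3.11e-04) and 3.1-fold in siPAI-1 libraries (log2 1.63, SE 0.044, adjusted p = 3.14e-04). It made up 4.65% to 5.12% of the summed level of the 43 genes in UM-UC-3 and 14.4% to 15.4% in RT112. The KDM5 enzymes, which act on the same lysine, went opposite ways in Scr. KDM5A was lower in RT112 (28.0 to 33.8 against 21.2 to 24.2 TPM over all libraries, log2 −0.49 in Scr), and KDM5B was called higher in Scr (19.6 and 19.9 against 25.9 and 26.4 TPM, log2 0.41) and not in siPAI-1 libraries (log2 0.51, limma adjusted p = 0.0737).

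Of the histone acetyltransferases, KAT2B (PCAF) was lower in RT112, with 18.3 and 25.8 TPM in UM-UC-3 Scr, 26.6 and 19.9 TPM in UM-UC-3 siPAI-1, 12.4 and 12.3 TPM in RT112 Scr, and 9.22 and 9.57 TPM in RT112 siPAI-1. The lines did not overlap (log2 −0.81 in Scr, SE 0.19, limma adjusted p = 0.0297). Its paralog KAT2A (GCN5) was called higher in Scr (24.9 and 28.0 against 32.9 and 34.8 TPM, log2 0.36), and the 2 RT112 siPAI-1 libraries were apart, at 27.8 and 43.1 TPM. EP300 was higher in RT112 in both comparisons (19.5 to 20.9 against 26.5 to 29.8 TPM, log2 0.52 and 0.45). CREBBP, the paralog of EP300, was not called and had overlapping lines over all libraries (28.6 to 36.4 TPM).

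Of the class I histone deacetylases, HDAC1 was called higher in RT112 in both comparisons, HDAC3 was called lower in siPAI-1 libraries, and HDAC2 was not called. HDAC2 had 183 and 162 TPM in UM-UC-3 Scr, 168 and 168 TPM in UM-UC-3 siPAI-1, 166 and 159.9 TPM in RT112 Scr, and 158 and 160.2 TPM in RT112 siPAI-1. The Scr groups overlapped (log2 −0.08, SE 0.078, 95% interval −0.29 to 0.14), and the sign of this value changed to 0.01 without UM-UC-3 Scr replicate 1. HDAC1 was higher in RT112 in both comparisons (104.1 to 118 against 145 to 157 TPM, log2 0.44 and 0.50), and HDAC3, the enzyme of the NCOR complexes, was called lower in siPAI-1 libraries alone (log2 −0.24 in Scr and −0.35 in siPAI-1).

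NCOR1, the corepressor that holds HDAC3 at nuclear receptor targets, was lower in RT112. It had 153 and 162 TPM in UM-UC-3 Scr, 164 and 169 TPM in UM-UC-3 siPAI-1, 69.0 and 58.4 TPM in RT112 Scr, and 64.4 and 79.1 TPM in RT112 siPAI-1. All RT112 libraries lay below all of UM-UC-3, by 2.48-fold in Scr (log2 −1.31, SE 0.10, limma adjusted p = 0.00147).

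Class II deacetylases, of which the class IIa members bind MEF2 factors and have little enzyme activity of their own, had line differences between −2.64 and 1.24 (log2) in Scr. HDAC9 had 5.6 and 5.48 TPM in UM-UC-3 Scr, 5.8 and 5.83 TPM in UM-UC-3 siPAI-1, 0.94 and 0.69 TPM in RT112 Scr, and 0.91 and 1.12 TPM in RT112 siPAI-1. The UM-UC-3 libraries were nearly equal and all above RT112, by 6.22-fold in Scr (log2 −2.64, SE 0.25, limma adjusted p = 0.00241). HDAC5 had 14.9 and 17.2 TPM in UM-UC-3 Scr, 18.3 and 19.7 TPM in UM-UC-3 siPAI-1, 1.58 and 4.0 TPM in RT112 Scr, and 2.23 and 4.7 TPM in RT112 siPAI-1. RT112 was lower throughout (log2 −2.62, SE 0.48, limma adjusted p = 0.014), but its replicates were 1.29 apart on the log2 scale in Scr, the widest replicate gap of any of the 43 genes. HDAC10, a class IIb enzyme that acts on polyamines, was the one higher in RT112, with 10.6 and 8.68 TPM in UM-UC-3 Scr, 7.49 and 11.6 TPM in UM-UC-3 siPAI-1, 20.8 and 24.99 TPM in RT112 Scr, and 24.6 and 20.5 TPM in RT112 siPAI-1. The lines did not overlap (log2 1.24, SE 0.16, limma adjusted p = 0.00561). HDAC4 (5.79 to 12.7 TPM) and HDAC7 (34.3 to 40.2 TPM) were not called in either comparison. HDAC7 took 51.0% to 56.8% of the summed class IIa level in UM-UC-3 and 74.6% to 81.8% in RT112, while that sum was 62.8 to 78.0 TPM and 46.0 to 52.4 TPM.

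The sirtuins, deacylases that depend on NAD+, also went opposite ways. SIRT7, a nucleolar enzyme, had 21.5 and 14.8 TPM in UM-UC-3 Scr, 15.6 and 13.9 TPM in UM-UC-3 siPAI-1, 40.9 and 40.4 TPM in RT112 Scr, and 48.1 and 48.4 TPM in RT112 siPAI-1. Every RT112 library was higher (log2 1.18 in Scr, SE 0.20, limma adjusted p = 0.0115, and 1.71 in siPAI-1, SE 0.091, adjusted p = 7.57e-04). SIRT6, which acts in DNA repair and at telomeres, had 27.7 and 29.6 TPM in UM-UC-3 Scr, 28.5 and 26.5 TPM in UM-UC-3 siPAI-1, 16.04 and 13.7 TPM in RT112 Scr, and 14.2 and 10.6 TPM in RT112 siPAI-1. Every RT112 library was lower (log2 −0.95, SE 0.12, limma adjusted p = 0.00473). SIRT1 (9.66 to 14.3 TPM) was called lower in siPAI-1 libraries alone (log2 −0.33 in Scr and −0.47 in siPAI-1).

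Of the alternative ATPases of SWI/SNF, SMARCA4 was higher in RT112 and SMARCA2 was not called. SMARCA4 (BRG1) had 15.1 and 17.1 TPM in UM-UC-3 Scr, 19.01 and 16.4 TPM in UM-UC-3 siPAI-1, 81.1 and 75.1 TPM in RT112 Scr, and 75.6 and 82.3 TPM in RT112 siPAI-1. The lines were far apart, 4.83-fold in Scr (log2 2.27, SE 0.099, limma adjusted p = 5.11e-04) and 4.44-fold in siPAI-1 libraries (log2 2.15, SE 0.10, adjusted p = 6.46e-04). This was the largest difference in favour of RT112 among the 43 genes. SMARCA2 (BRM) had 23.9 to 29.57 TPM in UM-UC-3 and 29.59 to 40.9 TPM in RT112, with no overlap by a narrow margin (log2 0.20 and 0.41, limma adjusted p = 0.294 and 0.0926).

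The DNA-binding subunits ARID1A and ARID1B were lower in RT112. ARID1A, a tumour suppressor that is often mutated in bladder cancer, had 47.2 and 44.2 TPM in UM-UC-3 Scr, 49.3 and 49.8 TPM in UM-UC-3 siPAI-1, 23.2 and 24.6 TPM in RT112 Scr, and 24.3 and 24.9 TPM in RT112 siPAI-1. RT112 had the lower level in every library (log2 −0.93, SE 0.078, limma adjusted p = 0.00178). ARID1B had 40.0 and 37.2 TPM in UM-UC-3 Scr, 37.1 and 39.9 TPM in UM-UC-3 siPAI-1, 18.1 and 14.7 TPM in RT112 Scr, and 14.7 and 17.2 TPM in RT112 siPAI-1. It too was lower in every RT112 library (log2 −1.24, SE 0.13, limma adjusted p = 0.00338). CHD7, a remodeller of another family, was not called (10.3 to 16.1 TPM with overlapping lines). ASXL1, which activates the deubiquitinase BAP1 in the PR-DUB complex, was lower in RT112 in both comparisons (65.9 to 72.2 against 40.0 to 51.8 TPM, log2 −0.47 and −0.75), and ASXL2 passed the test in siPAI-1 libraries alone (log2 −0.35 and −0.67).

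Because 28 of the 43 genes have a longest transcript of over 5 kb, their difference was set beside that of all genes of that length. The median was −0.06 (log2) for these 28 and −0.05 for 4065 genes in Scr, and −0.20 and −0.09 in siPAI-1 libraries.

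**Figure D3:**
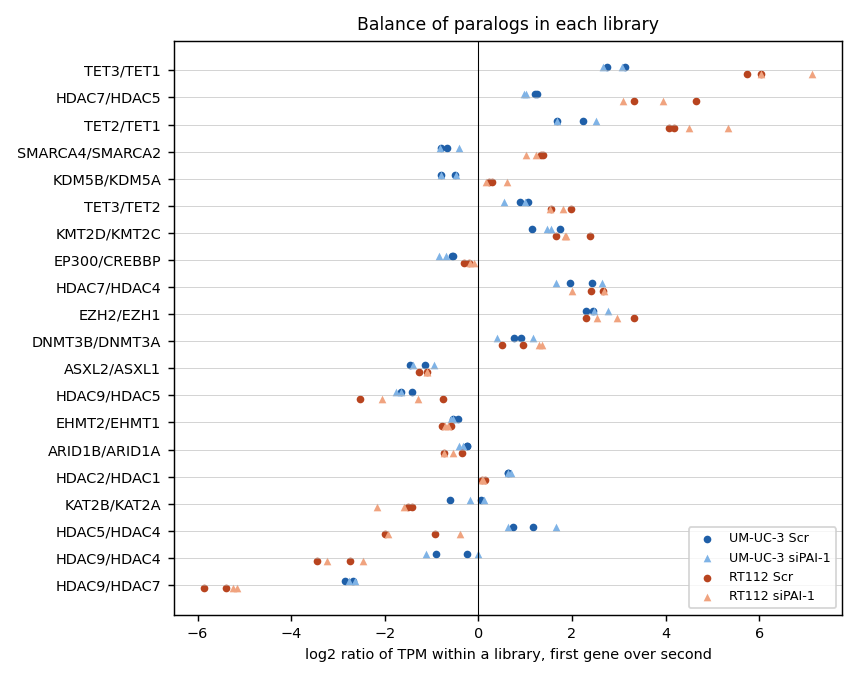
Log2 ratio of the TPM of paralog pairs within each of the 8 libraries (colours and symbols as for the TPM plot), ordered by the difference between the lines. The zero line marks equal levels, and SMARCA4/SMARCA2, KDM5B/KDM5A and HDAC5/HDAC4 lie on opposite sides of it in the lines.

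Since TPM is scaled to length, the balance of paralogs was described within each library for 20 pairs, without a test. In 13 pairs the 4 libraries of one line did not overlap those of the other, and in 7 they did. Single expressed genes were without overlap in 73.9%, and a share over other paralog pairs was not computed. The pairs are not independent, since the TET and class IIa genes each enter several of them. The more abundant partner switched in 3 pairs. SMARCA4 was below SMARCA2 in all UM-UC-3 libraries (log2 ratio −0.83 to −0.42) and above it in all RT112 libraries (1.01 to 1.37), so that it made up 36% to 42.8% and 66.8% to 72.1% of the summed ATPase level. That sum was 39.0 to 46.7 TPM in UM-UC-3 and 104.7 to 123 TPM in RT112. KDM5B was below KDM5A in UM-UC-3 (−0.79 to −0.48) and above it in RT112 (0.16 to 0.61). HDAC5 was above HDAC4 in UM-UC-3 (0.64 to 1.66) and below it in RT112 (−1.99 to −0.4), with the RT112 Scr replicates at −1.99 and −0.92. The balance of EZH2 to EZH1, of DNMT3B to DNMT3A and of ASXL2 to ASXL1 overlapped between the lines. KAT2A made up 47.9% to 60.5% of the summed level with KAT2B in UM-UC-3 and 72.7% to 81.8% in RT112.

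The effect of PAI-1 knock-down was then compared with Scr within each line. No gene was called in UM-UC-3 or RT112 at an adjusted p under 0.05 by limma, among 18528 and 18437 genes tested, which is 0% of them. At an unadjusted p under 0.05, 2 of the 43 genes were found in UM-UC-3 (6.01% of all genes tested) and 2 in RT112 (5.77%). The same count of 0 called was obtained in both lines together with the cell line as a covariate, where 0 of the 43 had an unadjusted p under 0.05 (4.98% of all genes tested). The differences of the 43 genes lay between −0.28 and 0.29 (log2) for UM-UC-3 and between −0.39 and 0.35 for RT112, with medians of 0.064 and −0.009 against −0.005 and 0.008 for expressed genes. Without RT112 siPAI-1 replicate 1 the RT112 median was 0.063. The 95% intervals lay within a 2-fold change for 41 of the 43 genes in UM-UC-3 (not for HDAC4 and TET1) and for 38 in RT112 (not for DNMT3A, EZH1, HDAC5, HDAC9 and TET1), and within 1.5-fold for 34 and 28.

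**Figure D4:**
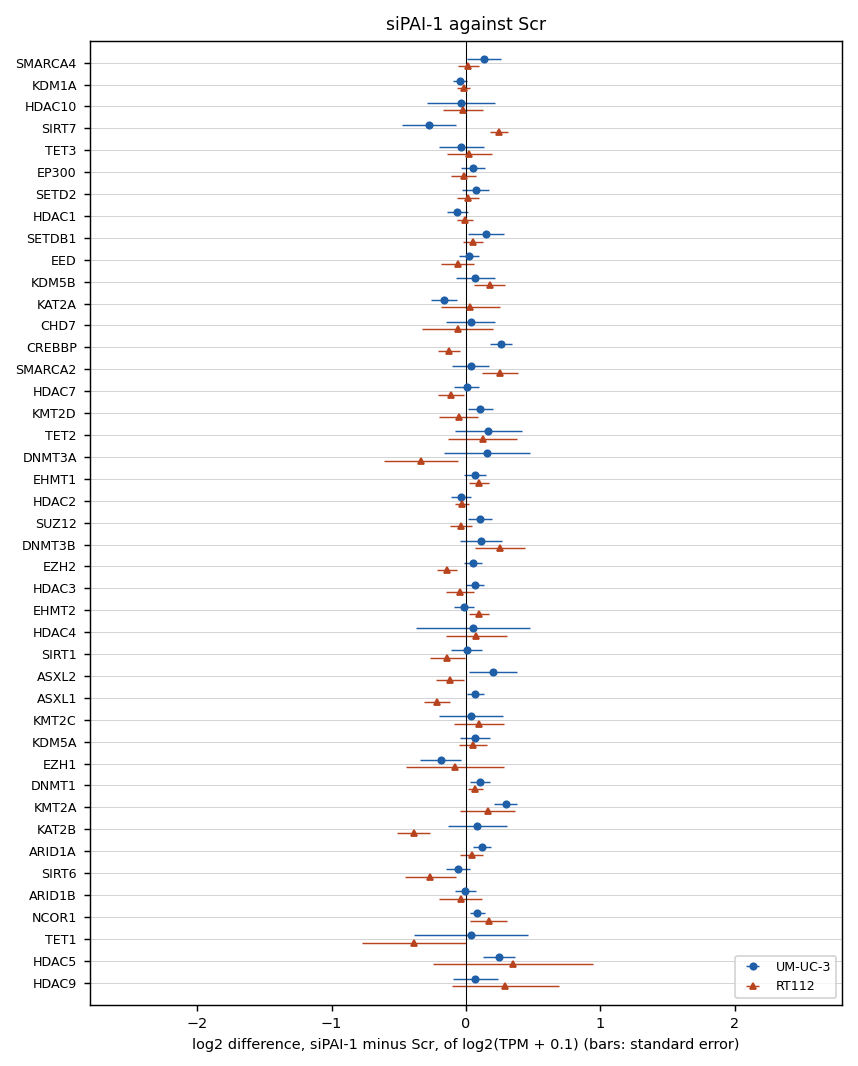
Difference between siPAI-1 and Scr (log2, siPAI-1 minus Scr) with its standard error for the 43 genes in UM-UC-3 (circles) and RT112 (triangles), in the order and close to the axis range of the line difference plot. All values lie between −0.39 and 0.35, and none passed the test.

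The smallest p-values in UM-UC-3 belonged to KMT2A, CREBBP and HDAC5. KMT2A had 22.04 and 21.2 TPM in Scr and 26.0 and 27.1 TPM in siPAI-1, with no overlap (log2 0.29, SE 0.083, limma adjusted p = 0.791). CREBBP had 28.6 and 29.7 TPM against 33.6 and 36.4 TPM (log2 0.26, SE 0.081, limma adjusted p = 0.791). HDAC5 had 14.9 and 17.2 TPM against 18.3 and 19.7 TPM (log2 0.24, SE 0.12, limma adjusted p = 0.858). None of these passed the test. In RT112 they were SIRT7, KAT2B and ASXL1. SIRT7 had 40.9 and 40.4 TPM in Scr and 48.1 and 48.4 TPM in siPAI-1 (log2 0.25, SE 0.065, limma adjusted p = 0.838). KAT2B had 12.4 and 12.3 TPM against 9.22 and 9.57 TPM (log2 −0.39, SE 0.12, limma adjusted p = 0.838). ASXL1 had 46.6 and 51.8 TPM against 40.0 and 44.7 TPM (log2 −0.22, SE 0.097, limma adjusted p = 0.838). The groups of these genes did not overlap, which held for 14 of the 43 genes in UM-UC-3 (11 higher and 3 lower in siPAI-1) and 16 in RT112 (8 and 8). Of expressed genes this was so for 37.8% (17.4% higher and 20.4% lower) and 37.3% (20% and 17.3%). DNMT3B was the only one of the 43 without overlap in the same direction in both lines (6.12 and 6.42 against 6.77 and 6.78 TPM in UM-UC-3, 5.68 and 5.89 against 6.29 and 7.59 TPM in RT112), a pattern shown by 6.83% of expressed genes. CREBBP and ASXL1 were without overlap in opposite directions in the lines, as were 7.09% of those genes.

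The interaction of siRNA and line, which is also the difference between the line comparisons in Scr and in siPAI-1 libraries, was called for 0 of the 43 genes by limma, and 2 had an unadjusted p under 0.05 (6.76% of all genes tested). The intervals of this difference lay within a 2-fold change for 35 of the 43 genes. Values lay between −0.49 and 0.52 (log2), and the highest was that of SIRT7 (SE 0.24, limma adjusted p = 0.765), whose line difference was 1.18 in Scr and 1.71 in siPAI-1 libraries.

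As a wider set, 130 other chromatin genes listed by class were read from the same tests. Of the 129 above 0 TPM in Scr, 24 were called higher and 50 lower in RT112, and in siPAI-1 libraries 23 higher and 52 lower, with 60 called in both in the same direction (81.1% of the Scr calls and 80% of the siPAI-1 calls). The share called was 57.4% in Scr and 58.1% in siPAI-1 libraries, below the 64.6% and 65.5% of expressed genes. With any of the 4 libraries left out, 10 to 13 were called higher and 21 to 23 lower in Scr, and 6 to 9 higher and 9 to 31 lower in siPAI-1 libraries. Among 30 remodeller genes 3 were called higher and 17 lower in Scr, where 31.7% of expressed genes were called higher and 32.9% lower. The lower ones included further subunits of SWI/SNF, such as PBRM1 (log2 −0.94), ARID2 (−0.66) and SMARCC2 (−0.61), and SMARCD2 (1.02) was higher, these 4 being named after their values were seen. Of 14 other histone demethylases 7 were called higher and 6 lower.

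**Figure D5:**
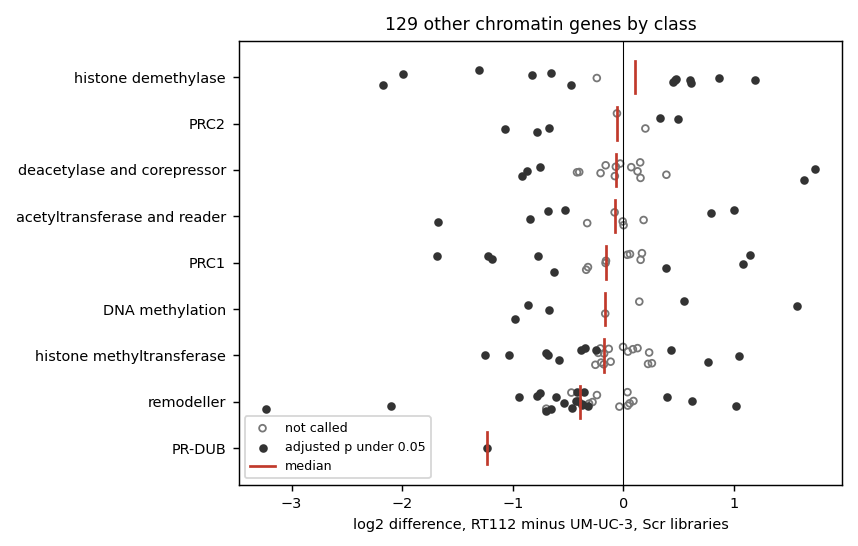
Difference between RT112 and UM-UC-3 in Scr libraries (log2) for 129 other chromatin genes by class, with filled points for genes called at an adjusted p under 0.05, open points for the others and a red bar at the class median. Remodellers lie mostly left of zero (median −0.39) and histone demethylases on both sides (median 0.11).

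By fold, the other genes called highest in RT112 Scr were SIRT5, HDAC11, TDG, KDM5C and PCGF3. TDG, the glycosylase that excises oxidised methylcytosine made by TET enzymes, had 30.3 and 26.9 TPM in UM-UC-3 Scr and 82.7 and 86.9 TPM in RT112 Scr (log2 1.57, SE 0.087, limma adjusted p = 7.61e-04). KDM5C, a further lysine 4 demethylase, had 22.4 and 30.3 against 51.4 and 69.0 TPM (log2 1.19), the mitochondrial deacylase SIRT5 had 3.57 and 3.66 against 11.4 and 13.1 TPM (log2 1.73), and PCGF3, a subunit of PRC1, had 18.1 and 17.7 against 41.3 and 38.0 TPM (log2 1.14). HDAC11 had 2.81 and 4.94 against 16.4 and 8.46 TPM (log2 1.63, limma adjusted p = 0.0444). All 5 were also called higher in siPAI-1 libraries. The lowest were DPF3, KDM7A, DPF1, KDM3A and CBX7. KDM3A, a demethylase for the repressive lysine 9 mark, had 42.6 and 48.7 TPM in UM-UC-3 Scr and 9.85 and 13.1 TPM in RT112 Scr (log2 −1.99), and DPF1, a SWI/SNF subunit known from neurons, had 22.02 and 19.6 against 4.28 and 5.27 TPM (log2 −2.10). Both were also called lower in siPAI-1 libraries. DPF3, at 0.99 and 0.71 TPM in UM-UC-3 Scr, had a listed value of 0 in each RT112 Scr library, and DPF3, KDM7A and CBX7 missed the threshold in siPAI-1 libraries (limma adjusted p = 0.0885, 0.17 and 0.0502).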

How the data were processed

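RNA-seq of 8 libraries was used, grouped by the labels into 4 groups of 2. For each gene the authors deposited a TPM and an FPKM value with 2 decimals. TPM was used here, with the deposited FPKM as an alternative. The submitters' processing notes name STAR 2.5.0, RSEM 1.2.25 and GRCh38, while the methods name cutadapt, STAR and featureCounts. The column headers of the deposited values carry the ending that RSEM gives its gene results, so the values were taken as made by RSEM. The kit was stranded and reads had 75 bases. The study's own group test needs counts, so limma 3.58.1 in R 4.3.3 took its place. Its lmFit and eBayes (with trend) were run two-sided on log2(TPM + 0.1). Each comparison of 2 groups was fitted on its own 4 libraries. The siPAI-1 effect in both lines together and the interaction were fitted on all 8. Benjamini-Hochberg adjustment was over genes above 0 TPM in at least 1 of the libraries fitted. TPM sums to the same total in each library, so a change in a few abundant genes shifts all others. Depth was estimated from FPKM steps of short genes between 20 and 45 M reads, and reads per gene are upper estimates with counting error only. Lengths came from GENCODE on GRCh37, in which 26624 genes matched by identifier. Of the other chromatin genes, 5 were matched under older symbols.

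The members, lists and tests were chosen with earlier results of these data known. Named with full values were members at an adjusted p under 0.05 and at least 1.5-fold in Scr, the 3 highest by TPM, for siPAI-1 the 3 smallest p in each line, and the 5 other chromatin genes of largest fold in each direction. The alternatives tried were 1 or 0.01 TPM as pseudocount, FPKM, rescaling by the median ratio, a mean of at least 1 TPM, 1 fit over all 8 libraries, eBayes without trend, a replicate block and each replicate left out. One gene covered by the rule for named genes is not reported here. The test was tested on simulated data. In these only a small share of genes was changed. The test recovered few or none of the simulated 1.5-fold and 2-fold changes and most of the 4-fold ones. Between the lines 51.6% (Scr) and 52.2% (siPAI-1) of all genes tested were called, with some calls under 1.5-fold. The simulated recovery therefore does not carry over to the line comparisons. In any comparison, a gene that was not called may still have changed. Plots were drawn with matplotlib 3.10.9 and summaries made with pandas 2.3.3 and numpy 2.4.6 (Python 3.11.15).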

Additional observations from a re-analysis of the deposited data

Results flagged for a closer look

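For CREBBP and ASXL1 both siPAI-1 libraries of one line lay above its Scr libraries and both of the other line below. The siPAI-1 effect on CREBBP was 0.26 (log2) in UM-UC-3 and −0.13 in RT112, a difference of −0.39 (SE 0.11, limma adjusted p = 0.632). For ASXL1 it was 0.07 and −0.22, a difference of −0.29 (SE 0.12, limma adjusted p = 0.732). Neither passed the correction over all genes.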

How the results depend on the processing

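With 2 libraries per group, the calls between the lines depended on each library. In Scr, leaving out each replicate in turn gave 2 to 8 of the 43 genes called higher (12 with all libraries) and 3 to 7 called lower (13). In siPAI-1 libraries it gave 4 to 7 called higher (8) and 3 to 10 called lower (17). These fits have 3 libraries and assume that the lone one varies like the others, and no call changed sign. ARID1A, KDM1A and SMARCA4 were called in both comparisons under every alternative, and 12 genes under every alternative that kept all libraries. With eBayes without trend, 18 and 19 of the 25 calls were kept, and the other chromatin genes called higher in siPAI-1 libraries went from 23 to 15. Over the same fits the HDAC2 difference in Scr ran from −0.17 to 0.01 (0.01 without UM-UC-3 Scr replicate 1), the median siPAI-1 effect on the 43 genes in RT112 from −0.043 to 0.063 (0.063 without RT112 siPAI-1 replicate 1), and the median interaction from −0.106 to 0.006 (0.006 without UM-UC-3 siPAI-1 replicate 2). Every alternative that kept all libraries, eBayes without trend among them, left 0 of the 43 genes called for siPAI-1. The cause of the differences between the fits was not tested.

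No pairing by replicate number was visible, as replicate differences of the groups correlated at −0.043 to 0.098 over 12803 genes. These correlations cannot show whether libraries of the same number were handled together. With the replicate block, 11 higher and 12 lower genes were called in Scr, 9 (SMARCA2 among them) and 15 in siPAI-1 libraries, and 0 for siPAI-1 in either line.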
